A study of Mus musculus with 8 samples.

Results

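Cd109-low skin was compared with Cd109-high skin across the whole series of 8 single-colour Agilent arrays, each hybridised with total RNA of mouse skin. The classes were chosen by the signal of a single Cd109 probe, A_51_P349546, and all 8 of 8 arrays fell into a class, with 4 Cd109-low and 4 Cd109-high. Signal is given throughout as log2 signal, the log2 of the processed intensity of a probe minus the log2 of the 75th percentile of its array, so that 0 is the level of that percentile. An array below -5 for Cd109 was Cd109-low and an array above 0 was Cd109-high.

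The mice were female, either CD109+/+ or CD109-/-, and per the study's methods both were FVB/N, the CD109-/- line having been generated separately and backcrossed to that strain. Skin was taken 24 h after the carcinogen DMBA or without it, the latter titled untreated and described by another label as given acetone. The labels thus define 4 groups of 2 arrays, CD109+/+ DMBA, CD109-/- DMBA, CD109+/+ untreated and CD109-/- untreated. No age is given for the array mice apart from that of the study's other DMBA-treated mice, and nothing in the labels says that the replicates were separate animals. The p-values therefore reflect variation among these arrays, which may be technical.

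Of the 8 arrays, 6 fell into the class their label implies and 2 did not. The array labelled CD109+/+ untreated replicate 2 was Cd109-low, and the array labelled CD109-/- untreated replicate 1 was Cd109-high. Both are untreated, so among the DMBA arrays class and labelled genotype were the same division. In untreated skin both replicate 1 arrays were Cd109-high and both replicate 2 arrays Cd109-low, so class and replicate number cannot be told apart there. All results below are given with these 2 arrays in the class their Cd109 signal gave. The fit of the 6 other arrays is quoted beside some of them only. A call given without it may not pass there, since by gene 57 passed higher and 15 lower in that fit. The classes were taken from the same arrays that were then compared, so the comparison gives no independent evidence of genotype, and Cd109 itself was given no test. Each row of the slide held 2 arrays of each class, but the DMBA arrays filled one row and the untreated arrays the other, and these cannot be told apart.

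The Cd109 log2 signal on the Cd109-low arrays was -7.84 and -7.51 after DMBA, for CD109-/- replicates 1 and 2, and -6.27 and -7.89 in untreated skin, for the arrays labelled CD109+/+ replicate 2 and CD109-/- replicate 2. On the Cd109-high arrays it was 1.10 and 1.68 after DMBA, for CD109+/+ replicates 1 and 2, and 2.30 and 1.90 in untreated skin, for the arrays labelled CD109+/+ replicate 1 and CD109-/- replicate 1. Values for other genes are given in this order. No array lay between -6.27 and 1.10, and the probe was well above background on 0 of 4 Cd109-low and 4 of 4 Cd109-high arrays, a level at least 167-fold lower on the Cd109-low arrays. Where a group had no array well above background, such bounds set the mean of the bright group against the dimmest signal called well above background on each dim array. The share of spots well above background ran from 63.6% to 67.0% and no spot was saturated. The skin markers Krt5, Krt14, Krt1, Krt10 and Col1a1 were well above background on all 8 arrays.

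CD109 is a membrane-anchored protein of the alpha-2-macroglobulin family that binds TGF-beta and can limit its signalling in keratinocytes. Mouse hair follicles cycle between growth, regression and rest. In a growing follicle, matrix cells under the influence of the dermal papilla divide and differentiate into the hair shaft, built of hair keratins with their associated proteins, and the sheath that encloses it, while follicle melanocytes turn on the pigment genes. Sonic hedgehog, Wnt, BMP and FGF signals pass between the matrix and the papilla and mark the phases of this cycle.

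A gene was said to have the same shift in both treatments when its adjusted p in a limma fit of class with treatment as covariate was under 0.05, both Cd109-low arrays lay on the same side of both Cd109-high arrays within each treatment, and the shift was at least 1 within each treatment. Here a shift is the log2 signal on Cd109-low minus Cd109-high arrays, so that 1 is a doubling, and each gene is represented by its brightest tested probe. Of 16851 genes tested, 594 were higher on the Cd109-low arrays in both treatments (3.53%) and 682, Cd109 among them, were lower (4.05%). Of the 594, 63 had symbols that start with Krt, those of keratins and keratin-associated proteins, and 531 did not. Genes were sorted by symbol alone, so any keratin-associated protein gene with another symbol is counted outside the keratins here and below. Of the lower genes apart from Cd109, 680 had no such symbol. Because the rule asked for size and separation in each treatment, agreement between the treatments is partly built in. Just inside the size limit were Tmeff1, with shifts of 1.33 after DMBA and 1.00 in untreated skin, and Tyrobp, with -2.22 and -1.0005. Just outside were Cenpf, with 1.02 and 0.99, and B3galnt1, with -1.72 and -0.9994.

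**Figure D1:**
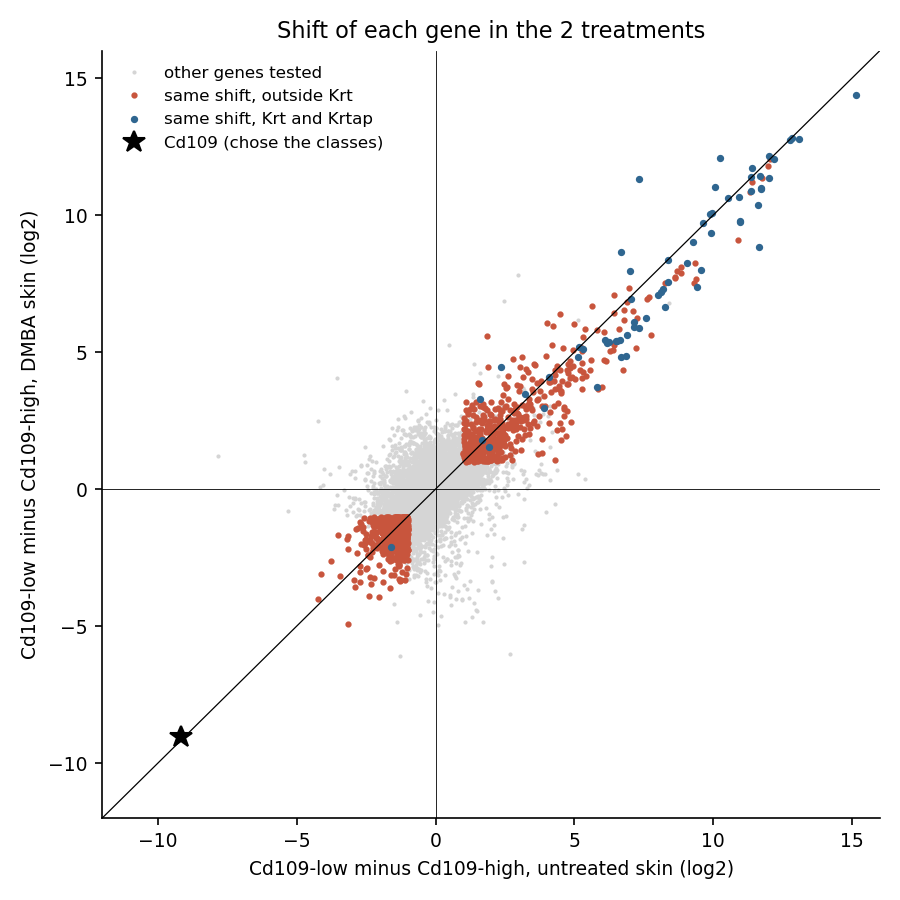
Shift of each of 16851 genes, Cd109-low minus Cd109-high on the log2 scale, in untreated skin (horizontal) and after DMBA (vertical). Blue points are genes with the same shift whose symbols start with Krt, and orange points the other genes with the same shift. Grey points are all others, and the star is Cd109, whose signal chose the classes. Among same-shift genes the shift in the fit of both treatments reaches 14.76 on the higher side and, apart from Cd109, -4.11 on the lower.

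In the same fit 3830 of 37147 probes were higher on Cd109-low arrays (10.3%) and 4530 were lower (12.2%), or by gene 1863 higher (11.1%) and 2779 lower (16.5%). Values did not overlap in either treatment for 3112 genes higher (18.5%) and 4193 genes lower (24.9%). Higher probes were thus 45.8% of the calls, but 62.6% when the deposited table of processed values was used, in which the median shift of all probes was 0.15 rather than 0.03. The counts rested on single arrays. The number of higher probes was 1082 and 1526 when CD109+/+ DMBA replicates 1 and 2 were left out, 2408 and 2491 without the arrays labelled CD109+/+ untreated replicates 1 and 2, and 1067 and 1769 without those labelled CD109-/- untreated replicates 1 and 2. The same-shift genes numbered 393 higher and 253 lower without CD109+/+ DMBA replicate 1, and 394 and 242 without the array labelled CD109-/- untreated replicate 1. The lower same-shift genes numbered 358 without CD109-/- DMBA replicate 2 and 393 without the array labelled CD109+/+ untreated replicate 2. Outside the keratin genes, 330 higher and 222 lower genes kept direction and an adjusted p under 0.05 in each of the 8 fits leaving out 1 array. Size and separation within each treatment were not asked again in that count.

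Without the 2 arrays that went against their label, 102 of 38360 probes were higher (0.266%) and 17 were lower (0.0443%). Of the 1276 same-shift genes 70 passed in that 6-array fit, of which 51 were higher and 11 lower outside the keratin genes and Cd109. When all 8 arrays were divided by labelled genotype instead, limma called 0 of 36921 probes (0%), with a smallest adjusted p of 0.604 and 2298 probes, 6.22%, at an unadjusted p under 0.05. In the 4 DMBA arrays alone, where genotype comes from the labels without use of Cd109, limma called 0 of 36454 probes (0%), with a smallest adjusted p of 0.0605, although 12120 probes, 33.2%, had an unadjusted p under 0.05. Leaving out CD109-/- DMBA replicates 1 and 2 in turn raised that count of 0 to 9910 and 240, and it was 991 with a variance trend and robust estimation.

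The DMBA arrays were used to pick genes by label, and the untreated arrays were then read. After DMBA, 1450 genes were higher in CD109-/- skin by at least 1 with no overlap. Of these, 930 (64.1%) were also higher on both untreated Cd109-low arrays than on both untreated Cd109-high arrays, which held for 32.0% of all genes tested and made up 17.2% of the 5392 genes that did so. Of 1734 genes lower after DMBA, 1353 (78.0%) were lower in untreated skin by class, against 40.3% of all genes, and made up 19.9% of the 6790 that were. With the untreated arrays divided by label instead, 2.62% of the genes higher and 4.21% of the genes lower after DMBA were separated the same way, against 6.58% and 9.16% of all genes. Each untreated class held 1 array of each labelled genotype, so a gene separated by class could not also be separated by label. The shares by label therefore follow in part from those by class and are no separate comparison.

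**Figure D2:**
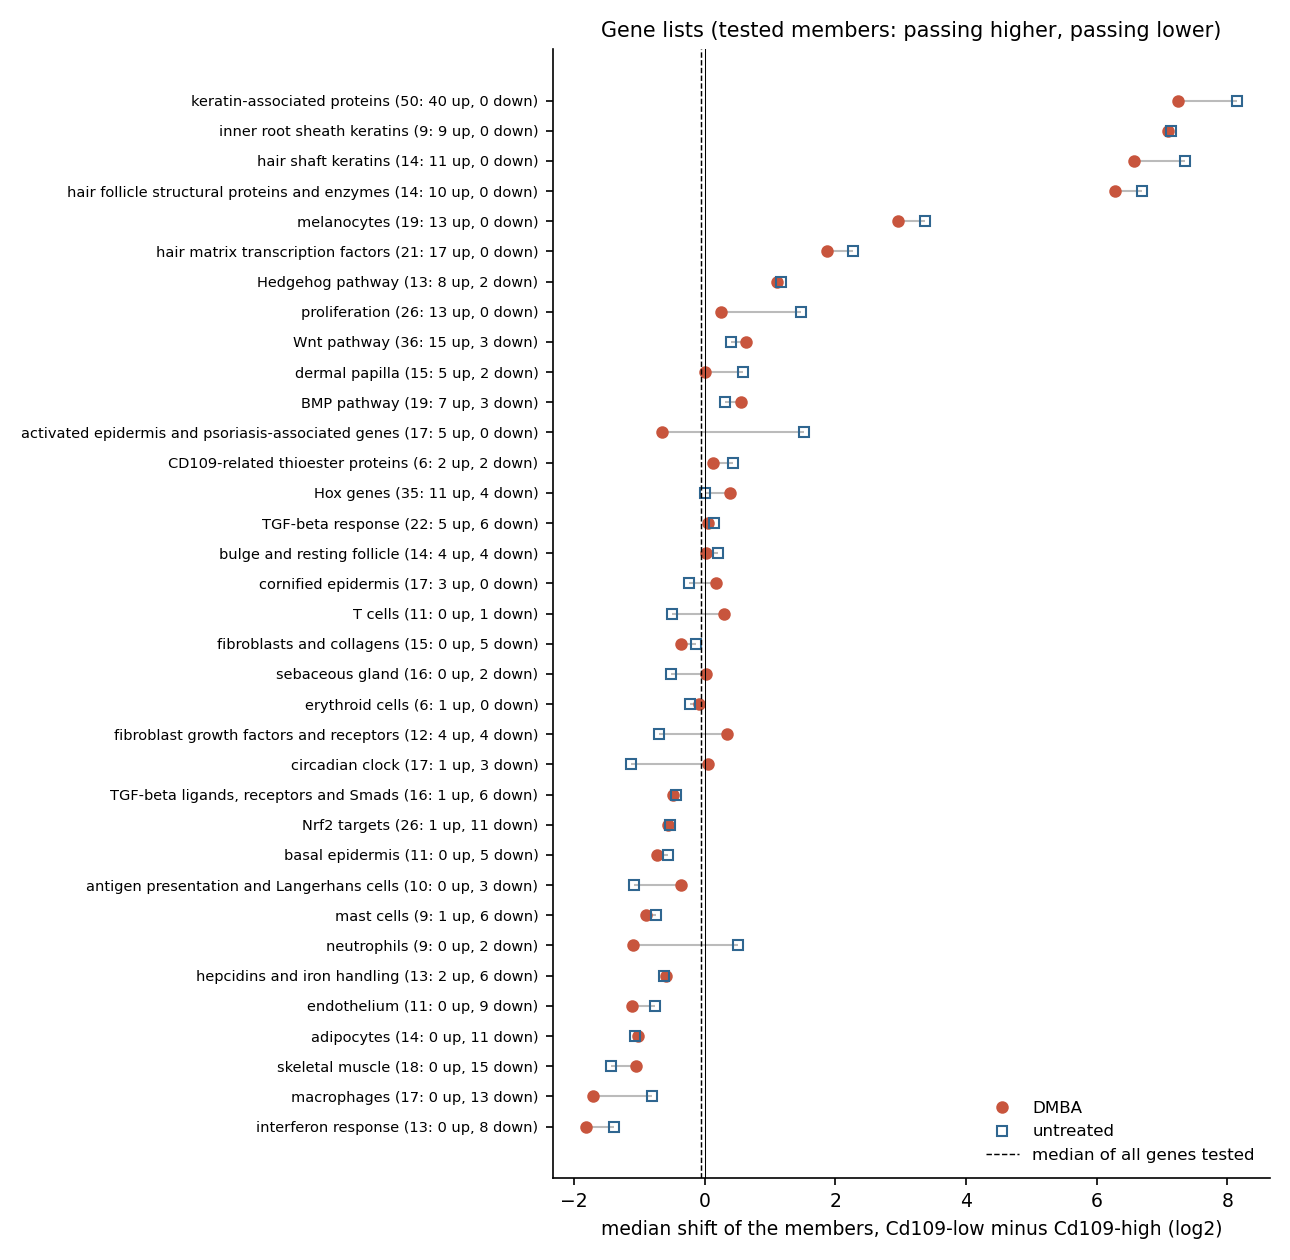
Median shift of the tested members of each gene list, Cd109-low minus Cd109-high on the log2 scale, after DMBA (circles) and in untreated skin (squares). Brackets give the number of members tested and the numbers passing higher and lower, and the dashed line is the median of all genes tested, -0.05. Keratin, follicle, melanocyte and Hedgehog lists lie to the right, and interferon, macrophage, muscle, fat and endothelium lists to the left.

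The counts of each list are to be set beside the 11.1% of all genes tested that passed higher and the 16.5% that passed lower. Keratins of the hair follicle gave the largest shifts. Of 14 hair shaft keratins 11 passed higher and 0 lower, with a median shift of 6.94, and of 9 inner root sheath and companion layer keratins all 9 passed higher, with a median of 7.48. Of 50 keratin-associated proteins, which cross-link the hair shaft keratins, 40 passed higher and 0 lower, with a median of 7.65. In the 6-array fit 1, 5 and 0 members of these lists passed higher, in that order. These genes lie in families of similar sequence, so probes may share signal between members. Krt71, a keratin of the inner root sheath, read 8.16, 9.48, 9.06 and 8.92 on the Cd109-low arrays and -3.91, -3.94, -3.67 and -3.87 on the Cd109-high arrays. No array came near the other class, and the shift was 12.75 ± 0.27 (SE, n = 4 and 4; adjusted p = 8.81e-06). Krt33b, a hair shaft keratin, was far more spread, at 1.47, 7.39, 5.84 and 3.87 against values from -8.47 to -7.96. The lowest of these was CD109-/- DMBA replicate 1 and the highest was CD109-/- DMBA replicate 2, and the same held for the mean of the hair shaft keratins, which ran from 0.20 to 4.98 on Cd109-low arrays and from -4.83 to -4.48 on Cd109-high arrays.

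The promoter of Krt71 is shown because the keratin genes moved together in both treatments. The window is 300 bases across the RefSeq start, chr15:101743048-101743347 on the minus strand of GRCm38.p6, and the capitals mark TATAAA, at -40 from the start.
Krt71: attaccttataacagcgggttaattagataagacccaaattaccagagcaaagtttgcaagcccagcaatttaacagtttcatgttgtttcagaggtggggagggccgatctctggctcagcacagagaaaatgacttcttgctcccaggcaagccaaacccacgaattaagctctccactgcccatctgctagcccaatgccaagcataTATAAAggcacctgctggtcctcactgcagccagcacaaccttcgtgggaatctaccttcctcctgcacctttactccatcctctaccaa
Searched on both strands, TATAAA was present in the windows of 79.6% of the 54 higher keratin and keratin-associated protein genes that had a window, against 9.83% of 13315 tested genes with a window. Outside these genes it was in 15.5% of the higher and 18.2% of the lower same-shift genes. CTTTGAA or CTTTGAT, letters recognised by Lef and Tcf factors, was in 31.5% of the keratin windows, 8.81% of the other higher, 7.76% of the lower and 6.63% of all. Keratin-associated protein promoters are similar in sequence, so these shares are descriptions.

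Of the 531 higher genes, 15 sit directly beside a keratin or keratin-associated protein gene in the order of all placed RefSeq genes, tested or not. Of the tested genes outside the keratins 28 sit there, and 0 of the 680 lower genes do. Whether any of the 15 is itself a keratin-associated protein gene under another symbol was not examined. Of these 15, Gm10229 read 1.11, 8.37, 6.60 and 4.45 against values from -7.89 to -6.17, which is at least 2067-fold, since it was well above background on 0 of 4 Cd109-high arrays. 1110025L11Rik read 1.90, 9.24, 7.40 and 5.54 against values from -5.56 to -4.77. The classes did not overlap for either gene, but both were among the 5 higher genes with the widest spread between replicates.

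Other structural proteins and enzymes of the follicle rose with the keratins. Of 14 on the list 10 passed higher and 0 lower, with a median shift of 6.32, and 2 passed in the 6-array fit. S100a3, a calcium-binding protein of the hair cuticle, read 4.22, 7.09, 6.80 and 6.05 against -2.25, -2.68, -2.22 and -2.58, a shift of 8.47 ± 0.59 (adjusted p = 0.00109). Tchh, trichohyalin of the inner root sheath and medulla, read 6.08, 8.58, 7.98 and 7.51 against -0.81, -0.47, -1.10 and -0.79. Padi3, which citrullinates proteins such as these, read 2.65, 5.25, 4.86 and 4.35 against -3.20, -3.92, -4.43 and -4.97. In all 3 the lowest Cd109-low array was CD109-/- DMBA replicate 1 and the highest was CD109-/- DMBA replicate 2. Gprc5d, an orphan receptor of hard-keratinised structures, had a shift of 7.89 ± 1.10 and Tchhl1, a relative of trichohyalin, of 8.18 ± 1.22. Crnn, cornulin, was the far end of the cornified epidermis list at 7.28 ± 0.57, while of the 17 members of that list 3 passed higher and 0 lower, with a median of 0.02.

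Transcription factors of the hair matrix were higher too, and less spread. Of 21, 17 passed higher and 0 lower, 14 had the same shift in both treatments and the median shift was 1.82, with 6 passing in the 6-array fit. Mycn, a Myc family factor, read 1.26, 1.76, 1.93 and 1.96 on the Cd109-low arrays and -3.08, -3.02, -2.90 and -2.73 on the Cd109-high arrays. The arrays of each class lay close together, and the shift was 4.66 ± 0.14 (adjusted p = 6.11e-05, and 0.0177 in the 6-array fit). Dlx2, a homeobox factor, read 1.07, 1.94, 1.92 and 1.75 against -4.35, -4.34, -4.59 and -4.98, and its relative Dlx4 0.09, 1.52, 1.30 and 1.12 against -4.11, -4.34, -4.77 and -5.40. Msx2, another homeobox factor of the matrix, had a shift of 4.94 ± 0.35 (adjusted p = 0.00109), and Hoxc13, a regulator of hair keratin genes, of 4.86 ± 0.41 (adjusted p = 0.0021). Foxn1, the factor lost in nude mice, was the more spread, at -1.43, 1.14, 0.73 and 0.02 against -2.80, -2.71, -2.63 and -2.95, a shift of 2.88 ± 0.53.

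The promoter window of Mycn is shown as that of the member of this list with the smallest p. It is chr12:12941787-12942086 on the minus strand of GRCm38.p6, and the capitals mark TTCAAAG, the reverse complement of the Lef and Tcf letters CTTTGAA, at -14.
Mycn: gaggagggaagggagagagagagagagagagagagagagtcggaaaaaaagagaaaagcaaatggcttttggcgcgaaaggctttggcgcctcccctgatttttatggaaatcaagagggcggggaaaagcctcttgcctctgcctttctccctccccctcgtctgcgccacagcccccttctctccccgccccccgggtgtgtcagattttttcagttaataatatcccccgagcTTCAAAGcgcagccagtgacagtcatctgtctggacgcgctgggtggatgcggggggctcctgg
Of the 8 same-shift members of this list with a window, 1 held the Lef and Tcf letters and 0 held the homeobox core TAATTG. That core was in the windows of 27.8% of the higher keratin genes, 7.14% of the other higher genes, 7.96% of the lower genes and 5.47% of all genes with a window.

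The Hedgehog pathway was higher from ligand to targets. Of 13 members 8 passed higher and 2 lower, 7 had the same shift in both treatments, and 4 passed in the 6-array fit, with a median shift of 1.14. Shh, the ligand made by the growing follicle, read -1.53, -1.71, -1.01 and -0.79 on the Cd109-low arrays and -8.09, -8.25, -7.63 and -7.74 on the Cd109-high arrays, where it was well above background on 0 of 4. The Cd109-low arrays lay close together, and the level was at least 24.6-fold higher on them. The Cd109-high values all lay under the dimmest signal called well above background, so their closeness says little of replicates. The shift of Shh, 6.66 ± 0.12, had the smallest p of all named genes (adjusted p = 4.72e-06, and 0.00603 in the 6-array fit). Its SE and p rest in part on those dim values. The shift was 6.55 after DMBA and 6.78 in untreated skin, a difference whose 95% interval ran from -0.74 to 0.27.

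The receptor Ptch1 followed the ligand. It read -0.60, -0.34, -0.89 and -0.41 against -3.47, -3.85, -2.90 and -3.08, a shift of 2.77 ± 0.22 (adjusted p = 0.00179). Hhip, an inhibitor that binds the ligand and is itself a target of the pathway, read 0.61, 0.60, 1.15 and 1.38 against -2.25, -2.35, -1.55 and -1.26. Gli1, the transcription factor most used as a readout of the pathway, read 3.46, 3.24, 3.69 and 4.04 against 0.37, 0.29, 0.88 and 0.43, a shift of 3.11 ± 0.15 (adjusted p = 0.000294). In none of the 3 did the classes overlap. Gli2, the main activator, had a shift of 1.44 ± 0.26 (adjusted p = 0.0159). The 2 members that were lower act on the ligand's release or reception, Disp1 with a shift of -0.81 ± 0.14 and the co-receptor Gas1 with -0.84 ± 0.11 (adjusted p = 0.0152 and 0.00808).

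**Figure D3:**
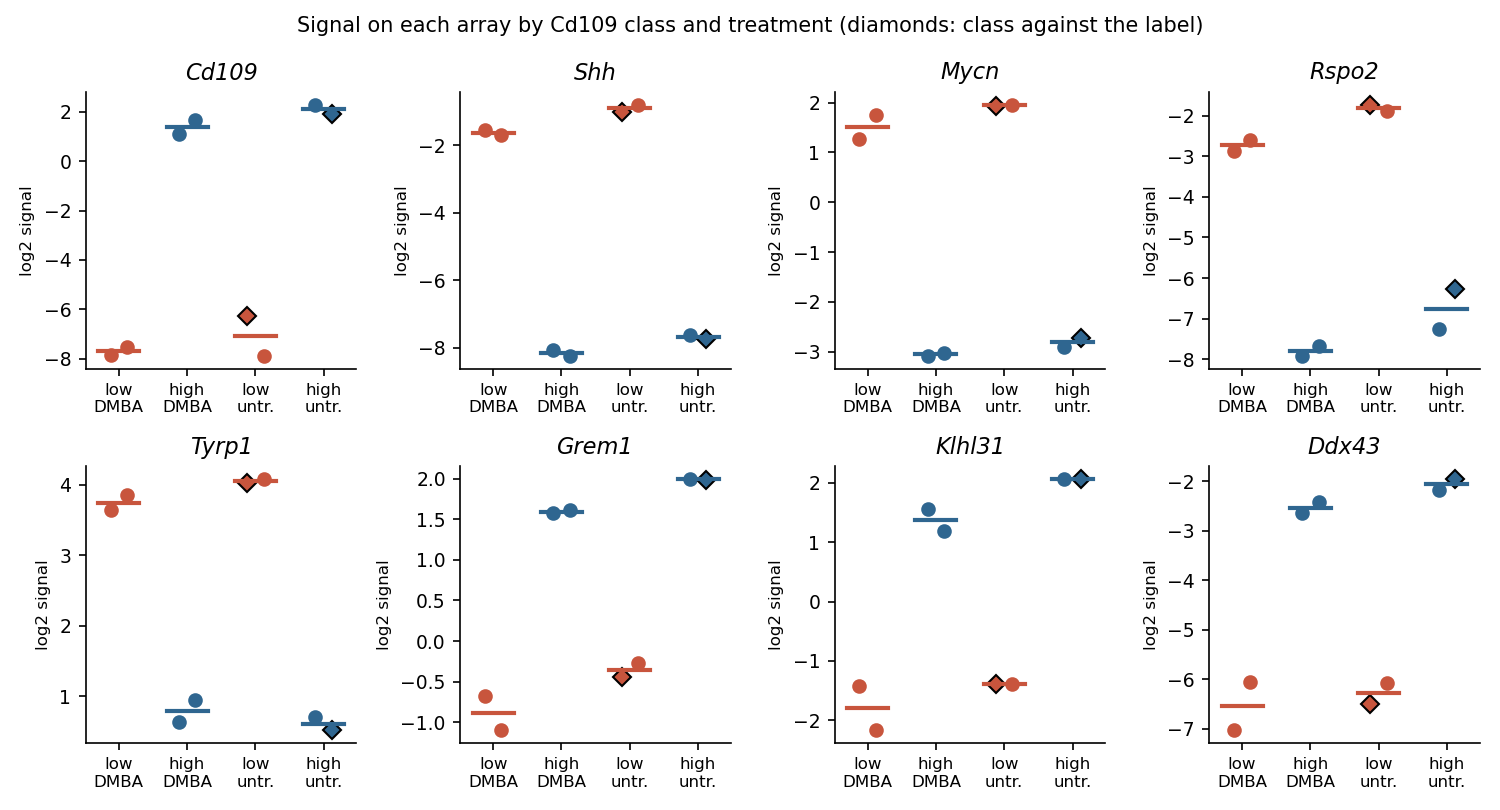
Log2 signal of 8 genes on each array, by Cd109 class and treatment (2 arrays each). Orange is Cd109-low, blue is Cd109-high, horizontal bars are means, and diamonds are the 2 arrays whose class went against the label. Apart from Cd109, which chose the classes, the 7 genes separate them in both treatments, Shh from -1.71 to -0.79 against -8.25 to -7.63, and Ddx43 from -7.03 to -6.07 against -2.65 to -1.95.

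Wnt pathway members moved in both directions. Of 36 tested 15 passed higher and 3 lower, and 11 and 2 had the same shift in both treatments, with a median of 0.51. In the 6-array fit 1 passed higher and 0 lower. Rspo2, an R-spondin that strengthens Wnt signals, read -2.87, -2.59, -1.72 and -1.89 on the Cd109-low arrays and -7.92, -7.69, -7.25 and -6.27 on the Cd109-high arrays. It was well above background on 0 of 4 of the latter, so the difference was at least 12.2-fold, with a shift of 5.01 ± 0.22 (adjusted p = 0.000186, and 0.0105 in the 6-array fit). Lef1, a nuclear mediator of Wnt signals in the matrix, read 2.84, 4.43, 4.08 and 3.72 against -1.32, -1.12, 0.03 and -0.21, a shift of 4.42 ± 0.36 (adjusted p = 0.00187). Among the ligands Wnt10b had a shift of 3.11 ± 0.33, Wnt11 of 2.44 ± 0.20 and Wnt6 of 1.39 ± 0.10 (adjusted p = 0.00401, 0.00198 and 0.00129), and replicates of Wnt6 within the Cd109-low class, at 0.71 and 0.73 after DMBA and 1.04 and 1.05 in untreated skin, were the closest of the higher same-shift genes outside the keratins. Secreted inhibitors were on both sides. Wif1 had a shift of 2.12 ± 0.31 and Dkk1 was higher on all 4 Cd109-low arrays at -2.63, -6.26, -3.78 and -2.78, against values from -8.27 to -7.67, but was well above background on 3 of the 4. Sfrp4 was lower, at 2.74, 2.45, 0.67 and 1.57 against 4.52, 4.12, 4.24 and 4.32, and so was Sfrp2, by -1.61 ± 0.32 (adjusted p = 0.00899 and 0.0191).

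In the BMP pathway, which holds follicles at rest and later drives shaft differentiation, 7 of 19 members passed higher and 3 lower, with a median of 0.44. Among the lower members was Grem1, a secreted BMP antagonist, which read -0.67, -1.10, -0.44 and -0.27 on Cd109-low arrays and 1.57, 1.61, 2.00 and 1.99 on Cd109-high arrays. Every Cd109-low array lay below every Cd109-high array, and the shift was -2.41 ± 0.12 (adjusted p = 0.000336, and 0.0356 in the 6-array fit). Chrdl1, another antagonist, read -1.69, -1.72, -1.72 and -0.62 against 0.02, -0.20, 0.10 and 0.45. Higher were the ligand Bmp4, by 1.13 ± 0.22, the target Id1, by 0.71 ± 0.12, and the inhibitory Smad6, by 1.60 ± 0.34 (adjusted p = 0.0181, 0.0139 and 0.0221). Bmp4 and Id1 missed the size limit of 1 in a treatment.

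Of 12 fibroblast growth factors and receptors 4 passed higher and 4 lower, with a median of -0.33, and 0 passed in the 6-array fit. Fgf5, which ends the growth phase, read -2.13, 0.68, -0.07 and -0.79 against -5.37, -4.75, -4.60 and -5.24, a shift of 4.41 ± 0.58 (adjusted p = 0.00751). Fgf18, a factor of the resting follicle, went the other way at -1.11, -1.08, -0.49 and -0.47 against 0.24, 0.74, 2.05 and 1.31, a shift of -1.87 ± 0.22 (adjusted p = 0.00531). Both were separated in both treatments. Fgf1 was lower by -1.16 ± 0.12 (adjusted p = 0.0041). Of 14 bulge and resting follicle genes 4 passed higher and 4 lower, with a median of 0.05.

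The dermal papilla list had a median of 0.48, with 5 of 15 members passing higher and 2 lower. The 5 included Rspo2, Wif1 and Hhip, which are also counted above. Corin, a protease of the papilla, read -3.23, -1.78, -1.65 and -1.89 on Cd109-low arrays and was well above background on 0 of 4 Cd109-high arrays, at -7.41, -7.68, -7.26 and -6.86, a difference of at least 13.4-fold (adjusted p = 0.000624, and 0.0387 in the 6-array fit). The 2 lower members were Crabp1, a retinoic acid-binding protein, by -1.41 ± 0.38, and Prom1, by -0.92 ± 0.21 (adjusted p = 0.0394 and 0.0244). The shift of Crabp1 was -2.29 after DMBA and -0.53 in untreated skin.

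Melanocyte genes were higher together, in skin of an albino strain. Of 19 tested 13 passed higher and 0 lower, 11 had the same shift in both treatments, and 8 passed in the 6-array fit, with a median of 3.20. The mean of the list ran from 0.80 to 1.52 on Cd109-low arrays and from -1.72 to -1.55 on Cd109-high arrays. Dct, dopachrome tautomerase of the melanin pathway, read 5.69, 6.0, 5.99 and 6.22 against 2.58, 2.83, 2.59 and 2.87, a shift of 3.26 ± 0.14 (adjusted p = 0.000186). Tyrp1, another melanin enzyme, read 3.64, 3.85, 4.02 and 4.09 against 0.64, 0.94, 0.70 and 0.51, a shift of 3.20 ± 0.15 (adjusted p = 0.00025). Neither gene overlapped between classes, and the arrays of a class lay close together. Pmel, which forms the fibrils of the melanosome, read 2.82, 3.50, 3.88 and 3.89 against -1.09, -0.69, -1.08 and -0.82. Tspan10, a tetraspanin of pigment cells, read -2.07, -1.64, -1.68 and -1.53 against -6.34, -5.72, -6.30 and -5.54. The receptor Mc1r, which sets pigment type, had the largest shift of the list, 6.69 ± 0.55, with 5.61 after DMBA and 7.78 in untreated skin.

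Members that act early in the lineage did not share these sizes. Mitf, the transcription factor of melanocyte identity, read 2.72, 3.33, 3.63 and 3.53 against 2.97, 2.73, 3.23 and 3.63 and did not pass, at 0.16 ± 0.17 (adjusted p = 0.508). Its classes overlapped in both treatments. The RefSeq symbol gathers isoforms that many cell types express, and which of them this probe detects was not examined. Kit, a receptor that melanocytes share with mast cells, was higher by 1.26 ± 0.22 (adjusted p = 0.0141). In whole skin, more cells of a type and more RNA per cell cannot be told apart.

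The windows of Tyrp1, Dct and Tspan10 are shown because CATGTG, the core of the M-box bound by Mitf family factors, stood in the windows of all 7 same-shift melanocyte genes that had one. It was in 57.1% of the 14 tested melanocyte genes with a window, 9.76% of all genes, 11.9% of the higher same-shift genes outside the keratins and 13.7% of the lower ones. Capitals mark CATGTG or its reverse complement CACATG. The windows are chr4:80833963-80834262 on the plus strand for Tyrp1, with the match at -46, chr14:118052197-118052496 on the minus strand for Dct, with matches at -232 and -150, and chr11:120442381-120442680 on the plus strand for Tspan10, with the match at -21, all of GRCm38.p6.
Tyrp1: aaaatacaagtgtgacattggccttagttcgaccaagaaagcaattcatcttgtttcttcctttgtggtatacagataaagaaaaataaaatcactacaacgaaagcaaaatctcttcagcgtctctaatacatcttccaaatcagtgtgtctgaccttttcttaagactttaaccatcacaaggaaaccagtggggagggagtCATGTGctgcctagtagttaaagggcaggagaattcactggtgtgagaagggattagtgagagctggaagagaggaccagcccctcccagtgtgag
Dct: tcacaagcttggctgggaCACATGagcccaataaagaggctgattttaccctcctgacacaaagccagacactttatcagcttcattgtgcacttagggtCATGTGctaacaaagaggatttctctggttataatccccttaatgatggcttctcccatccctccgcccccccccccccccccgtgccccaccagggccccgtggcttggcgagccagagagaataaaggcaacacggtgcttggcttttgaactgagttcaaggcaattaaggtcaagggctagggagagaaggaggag
Tspan10: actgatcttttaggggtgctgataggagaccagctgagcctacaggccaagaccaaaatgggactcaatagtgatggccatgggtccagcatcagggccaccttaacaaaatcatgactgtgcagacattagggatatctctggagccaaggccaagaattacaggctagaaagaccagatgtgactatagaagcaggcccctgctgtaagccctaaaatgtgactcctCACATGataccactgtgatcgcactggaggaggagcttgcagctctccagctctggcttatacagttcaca
A match is a description of letters and does not show that a factor binds there.

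Cell cycle genes were higher mainly in untreated skin. Of 26 proliferation genes 13 passed higher and 0 lower, but 1 had the same shift in both treatments. The median shift was 0.25 after DMBA and 1.48 in untreated skin. The 1 gene was Mki67, the antigen used to mark cycling cells, at 4.22, 4.50, 4.09 and 4.35 against 3.14, 3.44, 2.81 and 2.57. Bub1, a spindle checkpoint kinase, was nearer the pattern of the rest. It read 0.01, -0.04, -0.15 and 0.07 on Cd109-low arrays, -0.53 and -0.46 on Cd109-high arrays after DMBA, and -1.98 and -2.20 on those of untreated skin. Its Cd109-low arrays lay close together whatever the treatment, and its Cd109-high arrays fell into a pair for each treatment. The difference between its shifts after DMBA and in untreated skin, with a 95% interval from -2.06 to -1.08, did not pass over all probes (adjusted p = 0.0638).

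Hox genes, which carry position along the body, were examined because skin of different body sites differs in them. Of 35 tested 11 passed higher and 4 lower, against 11.1% and 16.5% of all genes tested. The median was 0.26, 5 and 1 had the same shift, and 0 passed in the 6-array fit. Hoxb6 read 1.10, 1.45, 1.52 and 1.72 against -0.16, 0.19, 0.19 and 0.12, a shift of 1.36 ± 0.14 (adjusted p = 0.0036). Hoxd10 was lower, by -1.16 ± 0.12 (adjusted p = 0.00382). Hoxc13 is counted in this list as well. Whether the skin pieces came from the same body site was not tested.

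The lower same-shift genes were smaller in size, and among them was a pair of genes from the chromosome 9 neighbourhood of Cd109. Ddx43, an RNA helicase gene, read -7.03, -6.07, -6.49 and -6.07 on the Cd109-low arrays, where it was well above background on 0 of 4, and -2.65, -2.43, -2.17 and -1.95 on the Cd109-high arrays. No Cd109-low array came near a Cd109-high array, and the level was at least 10.1-fold lower, with a shift of -4.11 ± 0.23 (adjusted p = 0.000431, and 0.0356 in the 6-array fit). Klhl31, a Kelch-like protein of striated muscle, read -1.43, -2.17, -1.39 and -1.39 against 1.55, 1.20, 2.06 and 2.07. It was well above background on every array, and its shift was -3.31 ± 0.18 (adjusted p = 0.000431, and 0.0385 in the 6-array fit). Ddx43 is the 5th and Klhl31 the 18th tested gene from Cd109 on the same side.

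Of the 20 tested genes nearest to Cd109 on each side, 40 in all, 4 passed higher and 15 lower, 1 and 6 had the same shift, and the median was -0.15. Beside Ddx43 and Klhl31 the lower same-shift neighbours were Gsta4, a glutathione transferase, at -1.48, -1.38, -1.89 and -2.13 against 0.81, 0.29, -0.50 and -0.29, then Mlip, a lamin-binding protein of muscle, with a shift of -1.44 ± 0.21, Cgas, the cytosolic DNA sensor, with -1.23 ± 0.19, and Filip1, a filamin-binding protein, with -1.11 ± 0.21. Of these 6, 5 lie on the side of Ddx43 and Filip1 on the other. The higher one was C920006O11Rik, by 2.58 ± 0.40. Gclc, which makes the first product of glutathione synthesis, was higher by 1.06 ± 0.22 (adjusted p = 0.0204) and Elovl5 by 0.90 ± 0.26 (adjusted p = 0.0484). The genes next to Cd109 did not pass, with Slc17a5 at 0.34 ± 0.35 and Col12a1 at -0.11 ± 0.40. The other neighbours that passed were Dppa5a, at 1.12, and, from -1.24 to -0.42, Ooep, Gm10639, Gm3776, Tent5a, Tmem30a, Cilk1, Fbxo9, Lrrc1 and Cox7a2. The genotype of the DNA around Cd109 was not tested.

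**Figure D4:**
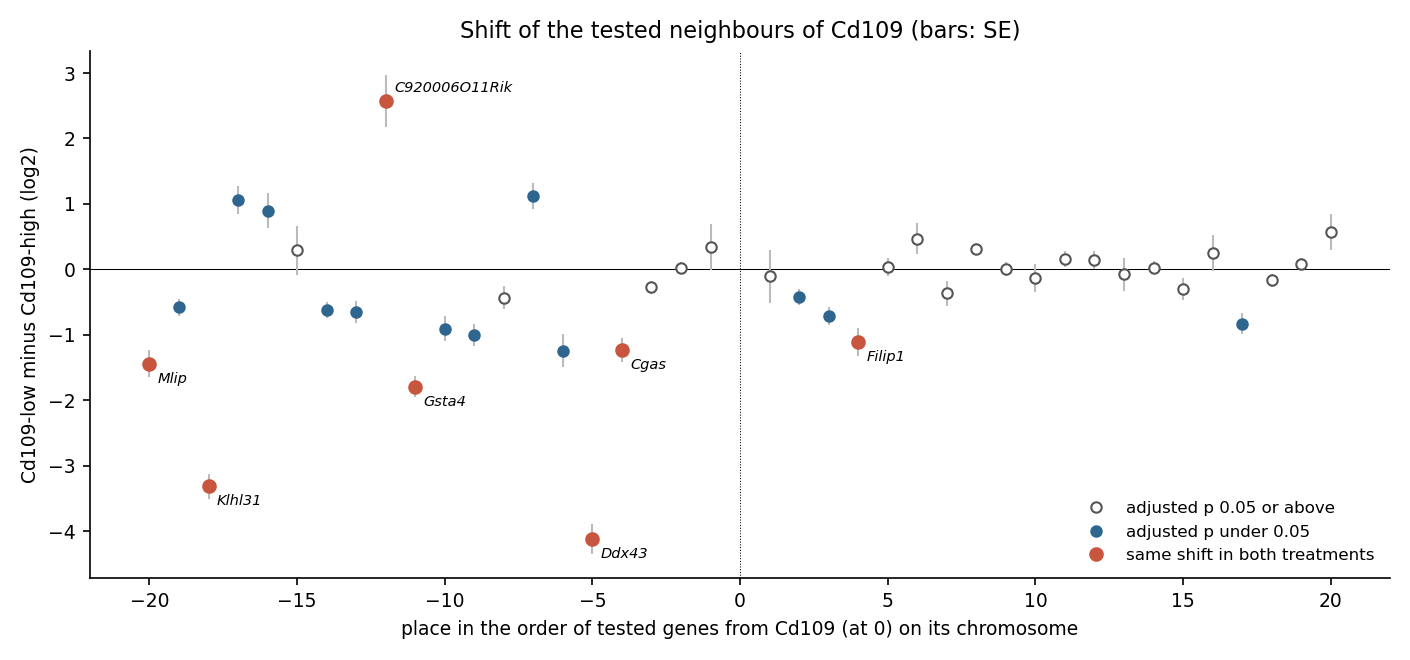
Shift, Cd109-low minus Cd109-high on the log2 scale, of the 20 tested genes on each side of Cd109, in their order on the chromosome, with bars of 1 SE. Filled points passed at an adjusted p under 0.05, and orange points had the same shift in both treatments. Ddx43 at -4.11 and Klhl31 at -3.31 stand below all others, and Ddx43 is the nearer.

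The other genes among the lowest were mostly dim. Spink7, a protease inhibitor gene of epithelia, read -7.41, -3.65, -6.04 and -6.35 against -0.72, -0.47, -2.79 and -3.32, with 1 of 4 Cd109-low arrays well above background (shift -4.04 ± 0.80, adjusted p = 0.0191). Pon1, paraoxonase, read -2.59, -5.27, -3.29 and -2.25 against -1.23, -0.41, 1.24 and 1.46. Kcnmb1, the potassium channel subunit of smooth muscle, was well above background on 0 of 4 Cd109-low arrays and at least 4.57-fold lower (adjusted p = 0.00357). Likewise on 0 of 4 Cd109-low arrays were Hs3st5, a heparan sulfate sulfotransferase, at least 5.89-fold lower, Ttr, transthyretin, at least 3.45-fold, Trim30b, at least 2.93-fold, Olfr113, at least 2.41-fold, Ifit1bl1, at least 2.05-fold, and Colec10, a collectin, at least 1.47-fold. Nnat, neuronatin, read -1.92, -4.16, -1.74 and -1.80 against -0.01, -0.20, 0.00 and 1.50. Epyc, a matrix proteoglycan gene, read -4.93, -7.62, -7.02 and -7.26 against -3.19, -3.61, -5.86 and -3.46. Its classes were separated within each treatment but overlapped across them.

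Lists of several, but not all, other cell types of whole skin moved with the class, in the opposite direction to the follicle lists. Of 18 skeletal muscle genes 0 passed higher and 15 lower, 9 with the same shift, with a median of -1.28. Their mean ran from 3.77 to 4.86 on Cd109-low arrays and from 5.26 to 6.36 on Cd109-high arrays. Actn3, the fast-fibre actinin, read 1.68, 0.79, 2.14 and 2.45 against 3.19, 3.25, 4.21 and 3.87, and Ryr1, the calcium release channel of muscle, had a shift of -1.40 ± 0.22 (adjusted p = 0.00505 and 0.0119). Myh4, a fast myosin, had the largest difference but did not pass, at 2.87, 0.07, 5.47 and 6.40 against 7.27, 7.86, 6.87 and 7.53 (adjusted p = 0.051). Of 14 adipocyte genes 0 passed higher and 11 lower, with a median of -1.01 and means from 2.85 to 3.72 against 4.11 to 5.03. The hormone gene Adipoq read 3.75, 2.75, 3.90 and 3.84 against 4.75, 4.75, 4.90 and 5.59, and Plin1, which coats lipid droplets, had a shift of -1.07 ± 0.17. In both lists the lowest array was CD109-/- DMBA replicate 2, the array with the highest hair shaft keratin mean.

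Of 11 endothelial genes 9 passed lower, with a median of -0.96 and means from 0.31 to 0.56 against 1.29 to 1.55. Vwf, von Willebrand factor, read 1.65, 1.64, 1.34 and 1.65 against 2.58, 2.49, 2.92 and 2.97, Pecam1 had a shift of -1.07 ± 0.17 and the receptor Tek one of -1.49 ± 0.29. Of 17 macrophage genes 13 passed lower, with a median of -1.34 and means from 1.99 to 3.04 against 3.29 to 4.06. Cd68 read 3.19, 2.55, 3.25 and 3.78 against 5.48, 5.30, 4.27 and 5.17, and Marco, a scavenger receptor, -0.60, -0.74, 0.43 and 0.13 against 0.59, 0.29, 1.75 and 2.35. The classes were separated within each treatment in both genes. Of 13 interferon response genes 8 passed lower, with a median of -1.58 and means from -1.47 to -0.05 against 0.26 to 1.62. Ifit1 read -1.08, -2.72, -1.07 and -0.56 against 0.44, 0.96, 0.24 and 0.90, and Usp18 and Ifit3 had shifts of -1.93 ± 0.37 and -1.95 ± 0.52 (adjusted p = 0.0236, 0.0178 and 0.0389). No gene of the muscle, adipocyte, endothelium, macrophage and interferon lists passed in the 6-array fit, where their medians were -1.22, -0.95, -1.02, -1.20 and -1.32.

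Of 9 mast cell genes 6 passed lower and 1, Kit, higher, with a median of -0.83. Cma1, a mast cell chymase, read 1.19, 0.30, 0.96 and 0.94 against 2.30, 2.15, 1.70 and 1.85, and Ms4a2 had a shift of -1.01 ± 0.16. Among all genes tested 11.1% passed higher and 16.5% lower. T cells had 0 higher and 1 lower of 11, with a median of -0.15, and neutrophils 0 and 2 of 9, with Mmp9 at -2.32 ± 0.51. The neutrophil median was -1.09 after DMBA and 0.52 in untreated skin. Antigen presentation and Langerhans cells had 0 and 3 of 10, sebaceous gland 0 and 2 of 16, among them Awat2, a wax synthase, at -1.64 ± 0.39, and erythroid cells 1 and 0 of 6. Fibroblasts and collagens had 0 and 5 of 15, with a median of -0.17. Dpt, dermatopontin, was lower by -1.39 ± 0.27, while Col1a1 read 7.49, 7.32, 7.28 and 7.23 against 7.06, 6.94, 7.32 and 7.37 and did not pass (adjusted p = 0.404). Of 11 basal epidermis genes 0 passed higher and 5 lower, with a median of -0.69. Lamb3, a chain of the laminin of the epidermal basement membrane, read 1.81, 1.38, 1.78 and 1.77 against 2.87, 2.79, 3.03 and 2.87, and Itgb4 and Krt14 had shifts of -0.75 ± 0.12 and -0.99 ± 0.23. Of the members on the array, 11 of 12 were tested for T cells, 9 of 10 for neutrophils and 6 of 8 for erythroid cells, and the others did not pass the filter on dim probes. The part of these cell types in the other shifts was not tested.

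**Figure D5:**
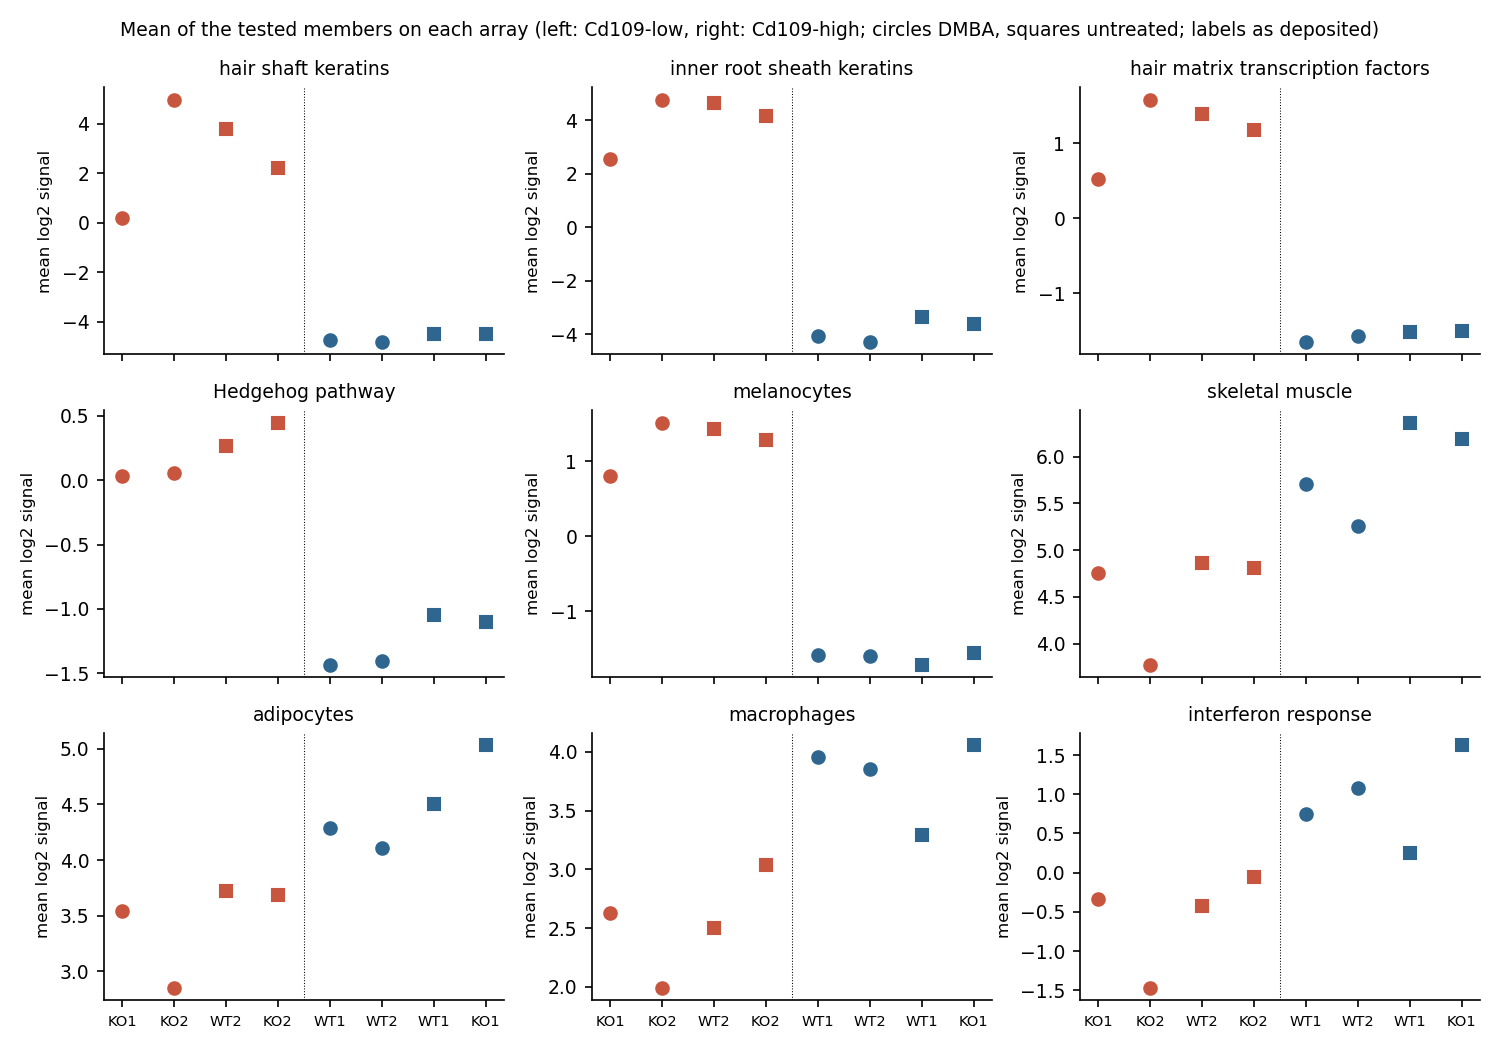
Mean log2 signal of the tested members of 9 gene lists on each array, with Cd109-low arrays in orange on the left and Cd109-high arrays in blue on the right, circles for DMBA and squares for untreated skin. Labels below give the deposited genotype and replicate, WT for CD109+/+ and KO for CD109-/-. The follicle, Hedgehog and melanocyte means are higher and the muscle, adipocyte, macrophage and interferon means lower on all 4 Cd109-low arrays, and the array at 4.98 in the first panel is the lowest in the last 4.

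The hair keratin level itself separated the classes, so it was also entered as a covariate, although it overlaps so far with the class that the variance of the class estimate rose by a factor of 9.73. In that fit 4 probes were higher and 3 lower. The higher ones were Krt71, Krt27, Shh and Dkk1, with Shh at a shift of 7.0 (adjusted p = 0.0127). The lower ones were 2 probes without a name and 1 probe of Krtap19-5 at -6.88 (adjusted p = 0.0411), a gene whose brightest probe had a shift of 3.43 without the covariate (adjusted p = 0.0884). Of the 1211 same-shift genes outside the keratins and Cd109, 797 kept their direction. Of the 150 genes followed through the alternatives, each by its brightest probe, 142 had passed without the covariate. Of these 142, 35 turned direction, none of them past the threshold. The hair keratin level and the Cd109 class cannot be told apart in these arrays.

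TGF-beta genes were examined because CD109 binds this ligand. Of 16 ligands, receptors and Smads 1 passed higher and 6 lower, with a median of -0.46. The receptor gene Tgfbr2 read 4.46, 3.57, 4.10 and 4.43 against 5.46, 5.34, 5.04 and 5.24, the co-receptor Tgfbr3 had a shift of -1.03 ± 0.15, and the ligand Tgfb2 one of -1.33 ± 0.30, with -0.62 after DMBA and -2.05 in untreated skin. None of these met the size rule in both treatments, but the 1 higher member, the inhibitory Smad7, did, with a shift of 1.08 ± 0.27 (adjusted p = 0.0329). Of 22 response genes 5 passed higher and 6 lower, with a median of 0.11. Among the lower were Tgfbi, an extracellular matrix protein, at 5.32, 4.64, 5.26 and 5.53 against 6.59, 6.60, 6.62 and 6.93, and the matricellular protein gene Ccn2, by -1.70 ± 0.37 (adjusted p = 0.00568 and 0.0238). Both had the same shift in both treatments. At the other end Cdkn2b, a cell cycle inhibitor, was higher by 1.13 ± 0.19 (adjusted p = 0.0129).

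Among the relatives of CD109 that share its thioester fold, 2 of 6 passed higher and 2 lower. Mug1, a murinoglobulin, read 3.08, 1.65, 2.29 and 1.66 against -3.29, -3.89, -0.78 and -3.72, and Mug2 read 2.79, 1.29, 2.08 and 1.42 against -3.60, -4.39, -1.03 and -5.44. The classes were separated, with the array labelled CD109+/+ untreated replicate 1 the highest of its class in both. The shifts were 5.09 ± 0.72 and 5.51 ± 0.93 (adjusted p = 0.00927 and 0.0134). These murinoglobulin genes are near copies, so the probes may not separate them. The complement genes C3 and C4b were lower, by -0.96 ± 0.24 and -0.91 ± 0.23 (adjusted p = 0.0316 and 0.0336).

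Of 26 targets of Nrf2, the antioxidant regulator, 1 passed higher and 11 lower, with a median of -0.60. Akr1c13, an aldo-keto reductase, read 1.12, 0.14, 0.25 and 0.68 against 2.00, 2.06, 1.65 and 2.36, and Hmox1, haem oxygenase, 3.36, 3.21, 3.10 and 3.01 against 4.51, 4.41, 3.56 and 3.84. Gsta4 and Gclc belong to this list as well as to the neighbourhood of Cd109. Of 13 hepcidin and iron genes 2 passed higher and 6 lower. Cybrd1, a ferric reductase, was higher at 0.59, 2.30, 1.66 and 1.24 against -1.71, -1.50, -1.18 and -0.99, as was the iron exporter Slc40a1, by 1.64 ± 0.28, whereas Hjv, hemojuvelin, was lower by -1.59 ± 0.30. Hamp2, a hepcidin, did not pass (adjusted p = 0.211). It stood at 2.76 and 4.58 on the untreated Cd109-high arrays and between -5.95 and -3.78 on the 6 others, whatever their class.

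Of 17 genes of activated and psoriatic epidermis 5 passed higher and 0 lower. Il17a, a cytokine gene of T cells, read -1.18, -3.69, -2.95 and -3.92 on Cd109-low arrays and -7.31, -7.17, -6.97 and -6.15 on Cd109-high arrays, where it was well above background on 0 of 4, a difference of at least 7.71-fold (adjusted p = 0.0116). Il17f had a shift of 2.19 ± 0.41, and S100a7a, a psoriasin gene of the mouse, read -3.15, -0.38, 0.14 and -1.27 against -4.87, -6.13, -7.62 and -5.53 (adjusted p = 0.0168 and 0.015). All 3 were separated in both treatments. The list as a whole did not keep this, with a median of -0.66 after DMBA and 1.52 in untreated skin. Of 17 circadian clock genes 1 passed higher and 3 lower, against 11.1% and 16.5% of all genes tested. Dbp read 4.58, 3.14, 3.55 and 3.61 against 4.75, 4.55, 5.55 and 5.76 and Per2 -1.66, -2.05, -2.75 and -2.87 against -1.50, -1.36, -1.27 and -0.97, and the list median was 0.05 after DMBA and -1.12 in untreated skin. The hour at which skin was taken was not given in the sources used here.

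Few shifts could be shown to differ between the treatments. The interaction of class and treatment passed for 10 of 37147 probes (0.0269%), with a smallest adjusted p of 0.0477, although 7825 probes, 21.1%, had an unadjusted p under 0.05. None of the 10 was a same-shift gene. Among the 1276 same-shift genes the shifts of 1067 (83.6%) differed by less than 1 between the treatments, but the 95% interval of that difference had a median half-width of 1.34, so differences of this size could often not be seen with 2 arrays a group. Of the 10, Wfdc12, a whey acidic protein family inhibitor, read -1.05, -0.76, -1.24 and -1.77 on Cd109-low arrays and 2.65, 2.33, -3.71 and -3.38 on Cd109-high arrays. Its Cd109-low arrays were alike, while its Cd109-high arrays lay above them after DMBA and below them in untreated skin (adjusted p = 0.0477). Cdhr1, a cadherin, turned in the same way with shifts of -2.74 and 2.47 (adjusted p = 0.0498).

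Replicates within a class agreed unevenly. Besides Wnt6, the same-shift genes with the closest Cd109-low replicates included H1f4, a linker histone, at 4.84 and 4.93 after DMBA and 4.64 and 4.66 in untreated skin, Adamts17, a metalloprotease, at -1.23 and -1.30, then -0.52 and -0.55, and, among the lower genes, Fgf18 and Pgm5, a phosphoglucomutase relative of muscle, at 0.58 and 0.54, then 0.61 and 0.54. At the other end Olfr1134, listed as an odorant receptor, read -1.95 and 5.97 after DMBA and 3.41 and 1.31 in untreated skin, and Apobec2, a muscle gene, 2.23 and -0.93, then 1.98 and 1.72. Olfr1134 read between -5.05 and -4.01 on the Cd109-high arrays and Apobec2 between 3.11 and 3.91, so both kept apart from the other class.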

How the data were processed

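Total RNA of skin was labelled with Cy3 and hybridised to 8 single-colour Agilent arrays of 1 slide. The deposited intensity values are the processed signals of Agilent Feature Extraction 11.5.1.1, and the authors also deposited a table of the same intensity values multiplied by a constant for each array, used only as an alternative. From the intensity, log2 signal minus the 75th percentile of each array was computed. Control and flagged spots were left out, spots of a probe were averaged, and probes had to be well above background on all arrays of at least 1 class and treatment group. Of 29684 probes with a RefSeq accession 27922 (94.1%) were named, giving 21095 genes, of which 16851 were tested by the brightest probe. Positions of probes were not used.

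Class was tested with limma 3.58.1 in R 4.3.3, treatment as covariate, with Benjamini-Hochberg adjustment over all probes, after a check on simulated data. The number of arrays limits the precision. Errors are standard errors of the shift (n = 4 and 4) unless named otherwise. Members and gene lists were chosen with earlier results of these data known. Named genes were the 15 highest and 15 lowest same-shift genes outside the keratins, up to 4 list members of smallest p and those at the ends of lists, neighbours of Cd109 that passed, and the 5 of least and most spread, and some of these are counted but not named. Other genes were chosen after their values were seen. Alternatives covered scaling, background correction, filter, variance model, classes, covariates and each array left out. Promoter windows are from RefSeq, and genes of several windows used the first. A few genes that met these rules are not reported here, though the list counts include them.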

Additional observations from a re-analysis of the deposited data

Results flagged for a closer look

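Among 302 sets of 4 arrays, each class for each of 151 genes, 16 (5.30%) held an array set apart from the other 3. The limit was the 95% critical ratio of gap to range of Dixon, which assumes 4 values of a single distribution. Each set mixed DMBA and untreated arrays, and some genes were picked by their spread. The share therefore cannot be set against chance. CD109-/- DMBA replicate 1 was lowest for Wnt11, at -0.14 against 0.80 to 0.96, and Corin, at -3.23 against -1.89 to -1.65. It was highest for Gm10639, at 1.55 against 0.77 to 0.82, and Gm3776, at 1.01 against 0.21 to 0.28. CD109-/- DMBA replicate 2 was lowest for Klhl31, at -2.17 against -1.43 to -1.39, Nnat, at -4.16 against -1.92 to -1.74, Adipoq, at 2.75 against 3.75 to 3.90, Plin1, at 0.92 against 1.50 to 1.61, Lamb3, at 1.38 against 1.77 to 1.81, and Apobec2, at -0.93 against 1.72 to 2.23, and highest for Colec10, at -6.36 against -7.94 to -7.81. The array labelled CD109-/- untreated replicate 2 was highest for Chrdl1, at -0.62, and the one labelled CD109+/+ untreated replicate 2 lowest for Vwf, at 1.34. On Cd109-high arrays the array labelled CD109-/- untreated replicate 1 was highest for Nnat, at 1.50, and Tgfbi, at 6.93, and the one labelled CD109+/+ untreated replicate 1 was lowest for Epyc, at -5.86.

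The shift differed between treatments, by the interaction term of limma, for 10 probes, of which 9 are given here. The shift after DMBA minus that in untreated skin was -5.44 for Wfdc12, -5.21 for Cdhr1, -3.38 for Olfr117, -3.32 for Vmn2r26 and -3.03 for Grm6, and 3.33 for Nptx2 and 3.05 for Aadacl4fm1, a gene of the arylacetamide deacetylase family. It was 2.75 and 2.54 for the unnamed probes A_30_P01021572 and A_30_P01033037. Nptx2 and Grm6 were well above background on 2 of the Cd109-high arrays and no Cd109-low array, and Vmn2r26 and Olfr117 on 2 of the Cd109-low arrays and no Cd109-high array.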

How the results depend on the processing

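Given in the order higher probes, lower probes, higher same-shift genes and lower same-shift genes, the main counts of 3830, 4530, 594 and 682 became 942, 676, 380 and 247 with the replicate block, 0, 0, 0 and 0 with groups as labelled, 102, 17, 57 and 15 without the 2 arrays against their label, and 4, 3, 4 and 0 with the hair shaft keratin covariate. Higher and lower probes became 2195 and 2402 with no filter on dim probes. By an additive analysis of variance of class and treatment they became 2352 and 2418 with adjusted p, and 6519 and 7178 with unadjusted p. The study's methods name analysis of variance, though not for the arrays, and give no such adjustment. Higher and lower same-shift genes became 370 and 365 with normexp, fitted on the probe values, and 266 and 33 with a shift of at least 2, and the lower ones 413 by the adjusted analysis of variance. The 10 probes whose shift differed between treatments became 67 with quantile normalization, 1056 with normexp, 0 with no filter, 142 with probes well above background on all arrays, 0 with the replicate block, 239 with trend and robust variance and 0 without the 2 arrays. The 0 probes after DMBA by the labels became 100 with quantile normalization, 3024 with normexp and 991 with trend and robust variance. The causes of these moves were not tested, save that fewer arrays or another covariate leave less to test.

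Leaving out each array in turn gave 1067 to 3811 higher probes, 751 to 4502 lower probes, 393 to 718 higher and 242 to 877 lower same-shift genes, 0 to 188 probes whose shift differed and 0 to 9910 probes after DMBA by the labels. A group left with 1 array was assumed to vary like the others. Of 150 named genes other than Cd109, 142 passed. None of these 142 changed direction under any scaling, background, filter or variance alternative, with the replicate block or without an array. Turns of direction of the other genes were not counted where they passed in neither fit. The replicate block ended 59 of these calls. Same-numbered arrays did not all deviate together, with correlations from -0.08 to 0.74. The largest was between the 2 untreated groups, where replicate number and Cd109 class were the same division. The correlations therefore cannot settle whether the numbers pair the arrays. Without the 2 arrays 116 of the 142 calls ended, and with groups as labelled 140.

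With the hair shaft keratin covariate 35 of the 142 genes that had passed, each followed by its brightest probe, turned direction, none past the threshold. Their shifts were 1110025L11Rik -0.11, Gprc5d -0.64, Tchhl1 -0.33, C3 0.48, C4b 0.073, Filip1 0.32, C920006O11Rik -0.30, Gclc -0.40, Pon1 0.68, Nnat 0.39, Epyc 0.98, Usp18 0.22, Ifit1 0.53, Cma1 0.053, Dpt 0.49, Tgfbr2 0.26, Akr1c13 0.12, Slc40a1 -0.25, Hjv 0.50, Dbp 0.64, Mmp9 0.28, Olfr1134 -5.22, Apobec2 1.86, Bmp4 -0.27, Smad6 -0.83, Foxn1 -1.07, Tyrobp 0.10, B3galnt1 0.025, Ifit3 0.89, Tek 0.034, Smad7 -0.92, Cilk1 0.14, Cox7a2 0.0037, Gm10639 0.088 and Gm3776 0.21. With 2 arrays in each class and treatment, small differences could not be seen.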
